A study of Mus musculus with 8 samples.

Results

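The lysosomal genes described here encode 24 lumenal enzymes, 4 lumenal activator or binding proteins and 10 membrane proteins of the lysosome. Members were taken by gene symbol, with the transcript cluster of highest mean signal for each gene, and 37 of the 38 listed symbols had a cluster, of 19505 genes with a symbol on the array. The remaining symbol, Glb1, had no cluster assigned to it alone and enters only the promoter counts below. Transcripts were measured in bone marrow cells of C57BL6/J mice on 8 Affymetrix arrays, 1 for each of 4 cultures on days 3 and 6 after treatment began. The first culture received M-CSF (50 ng/ml), the growth factor that turns marrow precursors into macrophages. The M-CSF+RANKL culture also received RANKL (100 ng/ml), the cytokine that turns the same precursors into bone-resorbing osteoclasts. The PSS1-WT and PSS1-LMS cultures were grown with both factors and were infected a day into treatment with retrovirus carrying wild-type or mutant phosphatidylserine synthase 1. Whether the other cultures were given an empty vector, and how many mice the marrow came from, is not stated in the labels.

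Lysosomes break down sugars, lipids and proteins with soluble hydrolases that work at acid pH, most of which are delivered to the organelle by a mannose 6-phosphate tag. Heavily glycosylated membrane proteins such as LAMP1 and LAMP2 line the organelle, and transporters export the products of digestion. Macrophages use lysosomes to digest what they engulf. Osteoclasts carry lysosomal membrane and hydrolases to the cell surface facing bone, where their contents enter the resorption pit.

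Values are log2 signals as deposited, and a difference of 1 log2 unit is 2-fold. Signals of different genes were not compared, since probe sets differ in brightness. Each group was a single array, so single-day differences were not tested. Tests used limma across 10871 measured genes with Benjamini-Hochberg adjustment, and a gene passed at an adjusted p under 0.05. Errors are standard errors of that fit. Error terms for RANKL and PSS1 measure how culture differences varied between days, and those for time how day differences varied among cultures. Neither measures spread between animals or replicate cultures. All 37 members were measured, and 36 were brighter on all 8 arrays than any of the 23 background probe sets of the same array, the highest of which reached between 5.54 and 7.13. The sole other gene, Arsa, lay within the background on 2 arrays. In bulk RNA, fewer cells of a type and less RNA per cell cannot be told apart.

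The cultures carried the markers of their labels. All 10 osteoclast markers exceeded the background on the 6 arrays with RANKL, against 0 of 10 with M-CSF on day 3 and 1 of 10, the proton pump gene Atp6v0d2 (12.55), on day 6. All 11 measured macrophage markers exceeded it on both M-CSF arrays. On these, log2 of their summed signal was 18.78 on day 3 and 20.14 on day 6, against 16.47 to 16.82 with RANKL. Most of the sum with RANKL was Csf1r (16.37 to 16.75). The median marker signal was 14.02 and 16.19 with M-CSF on days 3 and 6, and 6.94 to 8.10 with RANKL. Ptdss1, which encodes PSS1, had signals of 17.50 to 18.91 in the PSS1 cultures and 9.56 to 10.36 elsewhere. The 3 measured stromal markers were within the background on all 8 arrays. Neutrophil markers were higher on day 3 in all 4 cultures: log2 of their summed signal was 14.86 on day 3 and 11.79 on day 6 with M-CSF, and 14.20 to 14.72 and 8.29 to 9.33 with RANKL.

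The plot of members by array sets the values side by side. The M-CSF arrays differed from each other and from all arrays with RANKL, and the 6 arrays with RANKL resembled each other. Over those 6 arrays, 26 of 37 members stayed within a 2-fold range, with a median range of 0.68 log2 units. Fuca1, an alpha-fucosidase, had the narrowest range (0.17), and Idua, the iduronidase of heparan and dermatan sulfate breakdown, the widest (1.83). Over all 8 arrays the median range was 2.48, and only 3 members, Aga, Gusb and Galns, stayed within 2-fold.

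**Figure D1:**
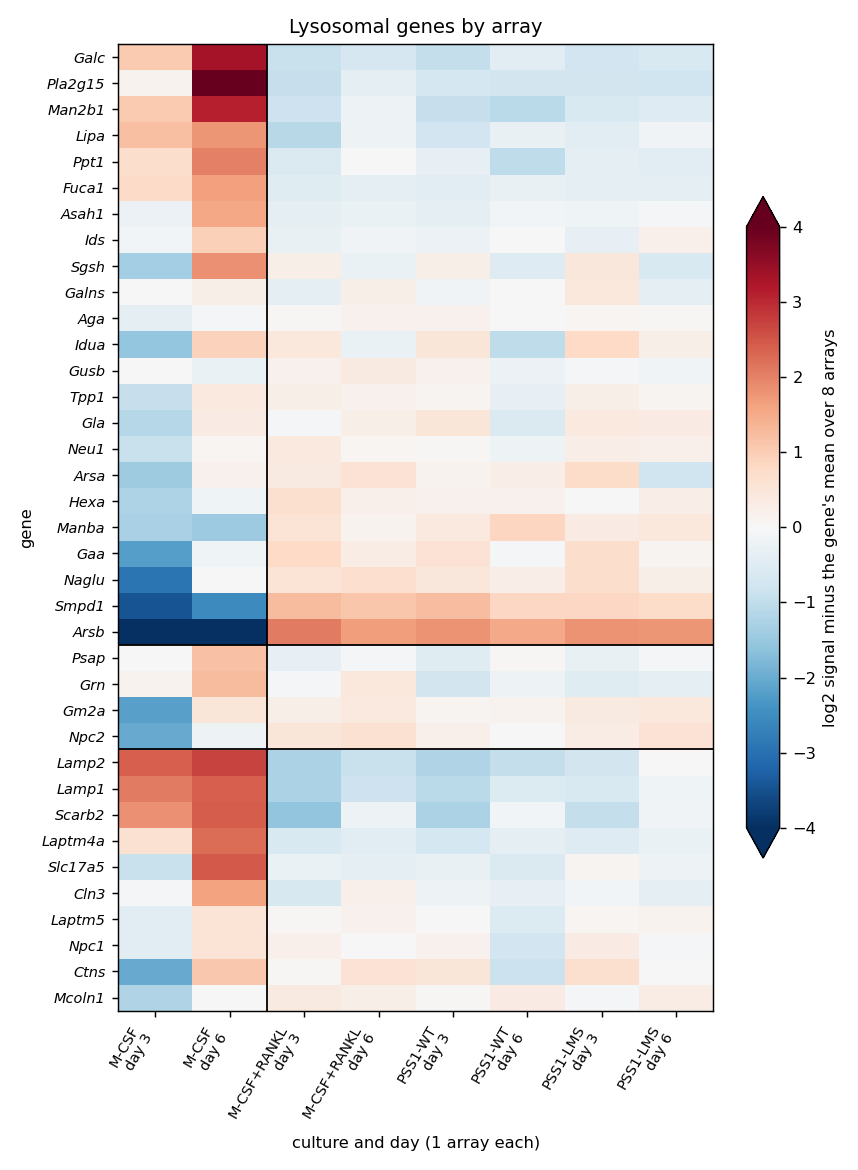
Heat map of 37 lysosomal genes (rows, in blocks of lumenal enzymes, lumenal activators and binding proteins, and membrane proteins) on 8 arrays (columns, 1 per culture and day). Colour is the log2 signal minus the gene's mean over the 8 arrays, with colours saturating at 4 log2 units. The M-CSF columns on the left hold nearly all strong colours, with blue for Arsb and Smpd1 and red for Lamp1, Lamp2 and Scarb2 on both days, whereas Sgsh, Idua and Ctns turn from blue on day 3 to red on day 6.

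Promoter sequence was examined because many of these genes moved together. CACGTG is the core of the element through which TFEB and related factors bind many lysosomal genes. RefSeq windows of 300 bases (GRCm38.p6), from 250 before to 50 after the gene start, matched 34 of the 38 listed genes, with 37 windows. Aga, Asah1, Galns and Npc1 were not matched. The palindrome CACGTG was in 9 of the 37 windows (24.3%), against 7.15% of all 32851 promoter windows. The overlapping longer form TCACGTG, searched on both strands, was in the same 9 windows, against 3.77% of all. The genes were Arsa, Cln3, Gaa, Gla, Glb1, Lamp1, Mcoln1, Naglu and Sgsh. A match is a description of the letters and was not tested as a binding site. The 250 bases before the start are shown for 4 of them, chosen after their values were seen. Sgsh, Naglu and Gaa are enzyme genes whose M-CSF signal was higher on day 6 than on day 3, and Lamp1 is a membrane protein gene whose signal was nearly level; capitals mark CACGTG, and sequences run 5′ to 3′ along the gene.
Sgsh (chr11:119355511-119355760, minus strand): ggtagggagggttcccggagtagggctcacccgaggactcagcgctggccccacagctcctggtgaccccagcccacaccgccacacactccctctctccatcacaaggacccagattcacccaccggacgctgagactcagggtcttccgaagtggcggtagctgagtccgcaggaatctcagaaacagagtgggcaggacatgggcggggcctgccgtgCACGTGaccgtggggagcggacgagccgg
Naglu (chr11:101069844-101070093, plus strand): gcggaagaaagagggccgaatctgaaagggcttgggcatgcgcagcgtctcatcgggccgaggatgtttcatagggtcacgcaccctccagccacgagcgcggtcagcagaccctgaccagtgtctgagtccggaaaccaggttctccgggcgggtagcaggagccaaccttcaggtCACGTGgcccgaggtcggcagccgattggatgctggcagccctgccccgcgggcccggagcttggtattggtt
Gaa (chr11:119267713-119267962, plus strand): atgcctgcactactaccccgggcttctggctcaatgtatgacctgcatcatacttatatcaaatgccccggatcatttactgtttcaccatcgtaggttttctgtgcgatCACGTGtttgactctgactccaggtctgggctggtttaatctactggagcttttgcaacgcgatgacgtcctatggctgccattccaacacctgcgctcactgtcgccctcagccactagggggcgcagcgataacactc
Lamp1 (chr8:13158911-13159160, plus strand): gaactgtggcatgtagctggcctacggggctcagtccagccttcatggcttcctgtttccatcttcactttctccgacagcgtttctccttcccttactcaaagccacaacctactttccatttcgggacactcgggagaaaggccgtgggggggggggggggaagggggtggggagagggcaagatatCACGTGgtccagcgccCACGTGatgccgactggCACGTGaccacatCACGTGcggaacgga
The hexamer began at position -29 from the start in Sgsh, -73 in Naglu and -140 in Gaa. Lamp1 held 4 copies, the first at -61.

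The first comparison asked how RANKL changed these genes in cells kept with M-CSF, averaged over both days. Arsb, the sulfatase that removes sulfate from dermatan and chondroitin sulfate, rose 146-fold, and Smpd1, acid sphingomyelinase, rose 18.2-fold. The lysosome-lining proteins Lamp2 and Lamp1 fell 12.2-fold and 9.76-fold. In all, 4 of 37 members rose, against 14.1% of all measured genes, and 9 fell, against 12.4%. The remaining 24 did not pass. The median difference was 0.02 over the members and 0.03 over all genes.

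Among lumenal enzymes, 3 of 23 rose, against 14.1% of all genes, and 5 fell, against 12.4%. Their median difference was 0.39, against 0.03 over all genes. Arsb signals were 10.77 and 10.10 with M-CSF on days 3 and 6, 17.84 and 17.42 with M-CSF+RANKL, 17.54 and 17.28 in PSS1-WT and 17.56 and 17.54 in PSS1-LMS. Every array with RANKL was thus far above both M-CSF arrays, and the difference was 7.19 ± 0.30 (adjusted p = 6.57e-06). For Smpd1 the signals were 8.55 and 9.47 with M-CSF on days 3 and 6, 13.28 and 13.11 with M-CSF+RANKL, 13.23 and 12.84 in PSS1-WT and 12.83 and 12.72 in PSS1-LMS. The groups did not overlap, and the difference was 4.19 ± 0.38 (adjusted p = 0.000175). Manba, the beta-mannosidase of glycoprotein breakdown, had signals of 8.41 and 8.26 with M-CSF on days 3 and 6, 10.26 and 9.84 with M-CSF+RANKL, 10.10 and 10.55 in PSS1-WT and 10.03 and 10.13 in PSS1-LMS. All 6 arrays with RANKL lay above both M-CSF arrays, with a difference of 1.71 ± 0.32 (adjusted p = 0.00609).

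The enzymes that fell degrade lipids, glycoprotein sugars and acylated proteins. Galc, which removes galactose from galactosylceramide, had signals of 8.47 and 10.78 with M-CSF on days 3 and 6, 6.54 and 6.76 with M-CSF+RANKL, 6.48 and 7.01 in PSS1-WT and 6.66 and 6.82 in PSS1-LMS. Its difference was -2.97 ± 0.53 (adjusted p = 0.00474), and its signals with RANKL were close to the background. Man2b1, the lysosomal alpha-mannosidase, had signals of 13.88 and 15.95 with M-CSF on days 3 and 6, 11.99 and 12.62 with M-CSF+RANKL, 11.91 and 11.73 in PSS1-WT and 12.23 and 12.32 in PSS1-LMS (difference -2.61 ± 0.52, adjusted p = 0.00811). Lipa, the acid lipase that frees cholesterol and fatty acids from esters, had signals of 16.54 and 17.12 with M-CSF on days 3 and 6, 14.25 and 15.14 with M-CSF+RANKL, 14.58 and 15.06 in PSS1-WT and 14.90 and 15.19 in PSS1-LMS (difference -2.14 ± 0.30, adjusted p = 0.00146). In each of these enzymes all 6 arrays with RANKL were below both M-CSF arrays. Signals of Ppt1, which removes palmitate from proteins, were 8.18 and 9.49 (M-CSF), 6.89 and 7.48 (M-CSF+RANKL), 7.15 and 6.48 (PSS1-WT) and 7.11 and 7.03 (PSS1-LMS) on days 3 and 6 in turn, a difference of -1.65 ± 0.47 (adjusted p = 0.0353). Fuca1 had signals of 12.33 and 13.21 (M-CSF), 11.11 and 11.19 (M-CSF+RANKL), 11.13 and 11.28 (PSS1-WT) and 11.18 and 11.21 (PSS1-LMS), a difference of -1.62 ± 0.33 (adjusted p = 0.00845). The groups did not overlap for Ppt1 or Fuca1 either, and Fuca1 was almost constant among the arrays with RANKL. The Ppt1 call held in 12 of 18 alternative settings and that of Fuca1 in 15 of 18.

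Counts by substrate stand beside shares of 14.1% higher and 12.4% lower over all genes. By substrate, 1 of 8 measured enzymes of glycosaminoglycan breakdown rose (Arsb) and none fell. Of 9 measured genes of sphingolipid breakdown, Smpd1 rose and Galc fell. Of 5 of glycoprotein sugar breakdown, Manba rose and Man2b1 and Fuca1 fell. Both directions thus occurred within the last 2 pathways. Among 5 genes that handle neutral lipid, phospholipid and cholesterol, Npc2 rose and Lipa and Scarb2 fell.

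Of the 4 lumenal activators and binding proteins, 1 rose, against 14.1% of all genes, and 0 fell, against 12.4%. It was Npc2, which takes up cholesterol in the lumen. Npc2 signals were 10.53 and 12.34 with M-CSF on days 3 and 6, 13.04 and 13.16 with M-CSF+RANKL, 12.75 and 12.57 in PSS1-WT and 12.83 and 13.13 in PSS1-LMS. The difference was 1.67 ± 0.48 (adjusted p = 0.0368), and the M-CSF day 6 signal lay just below the lowest signal with RANKL. Its call held in 8 of 18 alternative settings, with adjusted p from 1.08e-05 to 0.261. Gm2a, the activator of ganglioside breakdown (1.14), Psap, the precursor of the saposins (-0.79), and Grn, the growth factor precursor progranulin (-0.52), did not pass.

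Of the 10 membrane proteins, 4 fell, against 12.4% of all genes, and none rose, against 14.1%. Their median difference was -1.04, against 0.03 over all genes. An unadjusted p under 0.05 (limma) was reached by 5 of the 10, and by 4061 of all 10871 genes. Lamp2 signals were 18.39 and 18.72 with M-CSF on days 3 and 6, 14.75 and 15.13 with M-CSF+RANKL, 14.82 and 15.06 in PSS1-WT and 15.29 and 15.99 in PSS1-LMS. Lamp1 signals were 16.55 and 16.86 with M-CSF on days 3 and 6, 13.20 and 13.64 with M-CSF+RANKL, 13.37 and 13.93 in PSS1-WT and 13.86 and 14.28 in PSS1-LMS. In this related pair every array with RANKL lay more than 2-fold below both M-CSF arrays, with differences of -3.61 ± 0.29 (adjusted p = 9.92e-05) for Lamp2 and -3.29 ± 0.28 (adjusted p = 0.000132) for Lamp1. Scarb2, the receptor that carries glucocerebrosidase to lysosomes, had signals of 9.60 and 10.18 with M-CSF on days 3 and 6, 6.18 and 7.55 with M-CSF+RANKL, 6.52 and 7.67 in PSS1-WT and 6.82 and 7.64 in PSS1-LMS (difference -3.02 ± 0.31, adjusted p = 0.000355). Laptm4a, a small membrane protein of late endosomes and lysosomes, had signals of 14.60 and 16.23 with M-CSF on days 3 and 6, 13.38 and 13.57 with M-CSF+RANKL, 13.30 and 13.62 in PSS1-WT and 13.47 and 13.71 in PSS1-LMS (difference -1.94 ± 0.41, adjusted p = 0.0106). Neither gene's groups overlapped. The cholesterol exporter Npc1 (0.07), the calcium channel Mcoln1 (0.90), Laptm5 (0.02), Cln3 (-0.99), the cystine exporter Ctns (0.78) and the sialic acid exporter Slc17a5 (-1.08) did not pass.

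**Figure D2:**
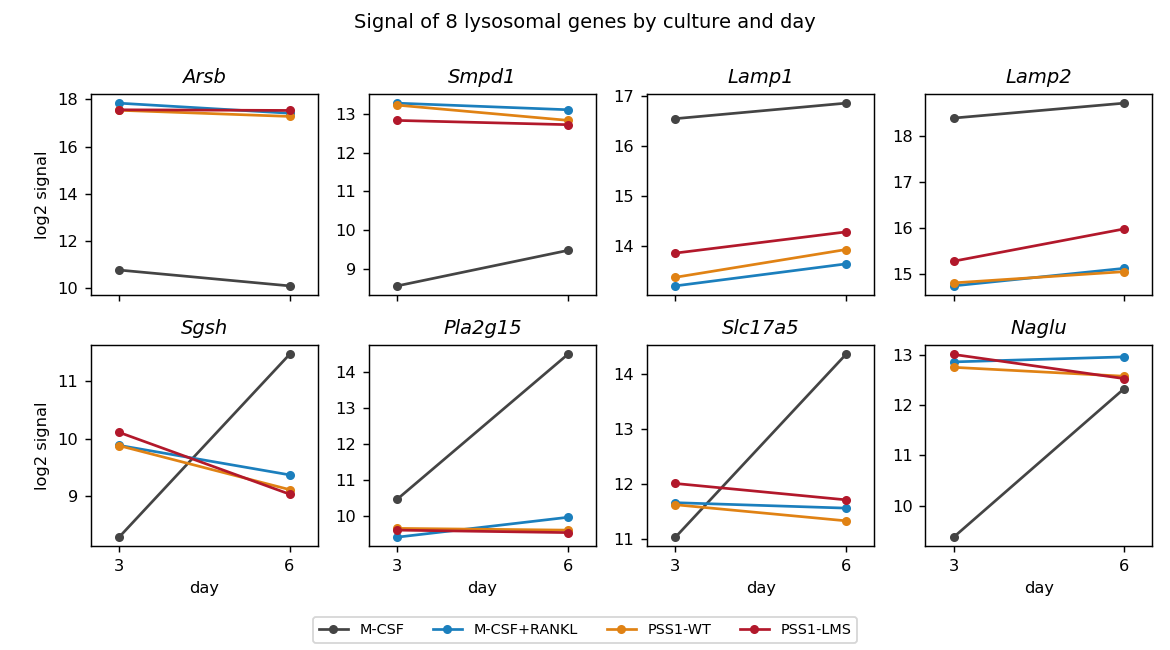
Log2 signal (vertical axes, each with its own range) on days 3 and 6 (horizontal axes) for 8 lysosomal genes, 1 array per point, with a line for each culture. In the upper row the M-CSF line lies far from the 3 lines with RANKL on both days. It is below them for Arsb and Smpd1 and above them for Lamp1 and Lamp2. In the lower row the M-CSF line climbs steeply between the days. The other lines there change less, and those of Sgsh fall (-0.51 in M-CSF+RANKL, -0.76 in PSS1-WT and -1.07 in PSS1-LMS).

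All 6 arrays with RANKL lay above both M-CSF arrays for 8 members, against 22.2% of all genes, and below both for 10, against 20.8%. Besides the genes that passed, Aga, Gaa, Hexa and Naglu lay above and Pla2g15 below. The other 19 overlapped. Omitting 1 array changed the RANKL counts, of the members and of all genes alike. Without the M-CSF array of day 3 more members were lower, and without that of day 6 more were higher. Counts over all genes rose in both directions in these 2 fits. Omitting an M-CSF+RANKL array lowered the counts of members and of all genes. Each of these fits leaves 1 array in a compared culture, so its counts are not given. The Idua difference was -1.31 without the M-CSF array of day 3, and the Sgsh difference was 1.73 without that of day 6. Arsb, Smpd1, Lipa, Scarb2, Lamp1 and Lamp2 passed in all 18 settings tried. Beside these changes, 10 of 10 osteoclast markers rose and 10 of 11 macrophage markers fell, and the part that the change of cell type played in the lysosomal differences was not tested.

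The size of the difference with RANKL depended on the day for many members, and its sign for 10 of 37. On day 3, 16 of 37 were at least 2-fold higher with M-CSF+RANKL than with M-CSF, against 19.3% of all genes, and 10 at least 2-fold lower, against 16.4% (median 0.45, all genes 0.04). On day 6, only 3 were at least 2-fold higher, against 18.7%, and 17 at least 2-fold lower, against 17.6% (median -0.52, all genes 0.04). Those 3 were Arsb, Smpd1 and Manba, which were also at least 2-fold higher on day 3. Taken without a size threshold, 10 members lay above M-CSF on day 3 and below it on day 6, a pattern shown by 14.8% of all genes. The opposite pattern had 0 members. The rest kept their sign, with 11 higher and 16 lower on both days. The shares of all genes with these other patterns were not counted, so whether they are particular to the members cannot be read from these counts. The 10 were Ctns, Gla, Gm2a, Idua, Laptm5, Neu1, Npc1, Sgsh, Slc17a5 and Tpp1. Idua (1.97 on day 3 and -1.20 on day 6) and Sgsh (1.60 and -2.09) exceeded 2-fold both ways. Neu1 (-0.002), Gm2a (-0.11) and Gla (-0.11) were nearly level with M-CSF on day 6. These single-day differences rest on 1 array a side.

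**Figure D3:**
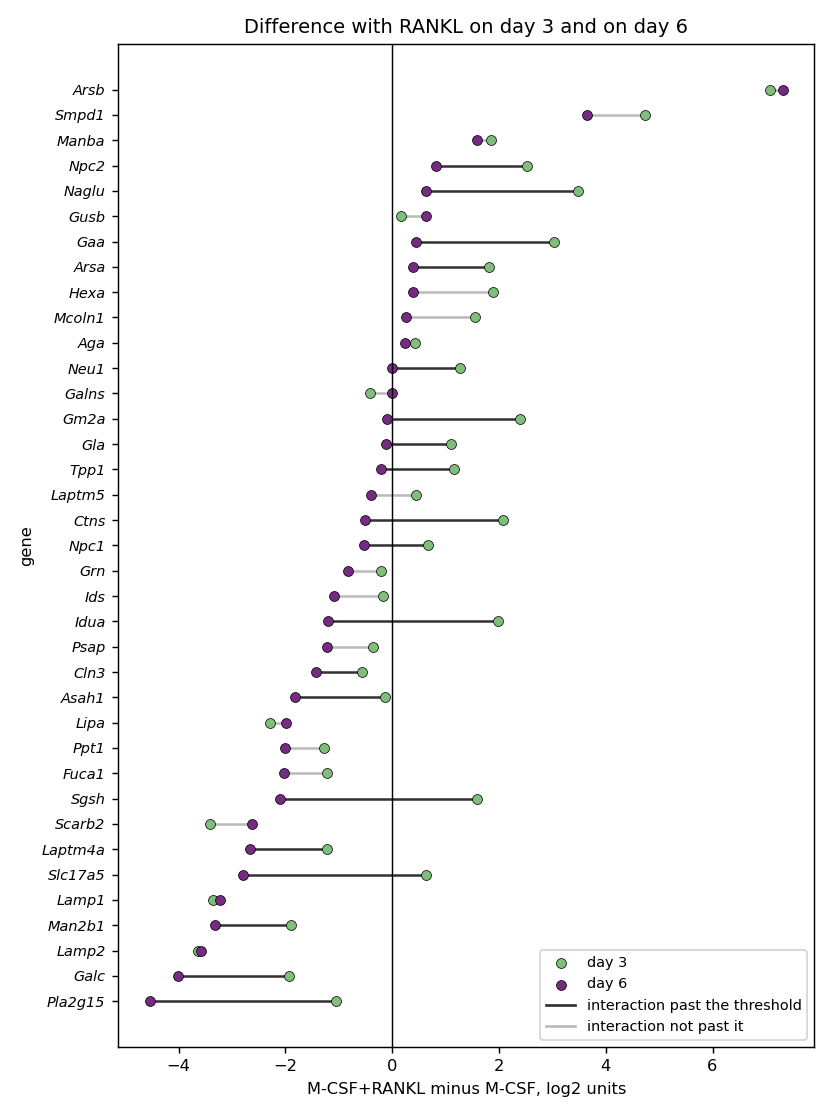
M-CSF+RANKL minus M-CSF in log2 units (horizontal axis) for 37 lysosomal genes (rows, ordered by the day 6 difference), on day 3 (green) and day 6 (purple), with 1 array on each side. Dark lines join genes whose RANKL-by-day interaction passed, and these have the purple point to the left of the green, whereas both points of Arsb, Smpd1, Lamp1 and Lamp2 lie on the same side of 0 and far from it.

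The second comparison was between days within a culture. In the M-CSF culture 34 of 37 members had a higher signal on day 6 than on day 3. A total of 23 were at least 2-fold higher, against 14.9% of all genes, and 0 at least 2-fold lower, against 12.9%. The median difference was 1.20 over the members and 0.002 over all genes. The median was 1.31 for the 23 lumenal enzymes, 1.48 for the 4 activators and binding proteins and 1.09 for the 10 membrane proteins. Only Arsb (-0.67), Gusb (-0.28) and Manba (-0.15) were lower on day 6. This difference has no replicate and was not tested by itself.

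In the M-CSF+RANKL culture 36 of 37 members stayed within 2-fold between the days (median 0.14), and so did 33 in PSS1-WT (median -0.11) and 35 in PSS1-LMS (median -0.02). Of all 10871 measured genes, 10445, 10246 and 10408 did so in these cultures, so staying level was not particular to the members. The exception in M-CSF+RANKL was Scarb2 (1.37). The test of whether the day change differed, the RANKL-by-day interaction, took the mean day change of the 3 cultures with RANKL minus that of the M-CSF culture. It was lower for 19 of 37 members, against 12.8% of all genes, and higher for 0, against 9.49% (limma). An unadjusted p under 0.05 was reached by 24 members and by 3839 of all 10871 genes. The median was -1.37 over the members and -0.03 over all genes. The M-CSF side of this contrast has 1 array per day, so its own spread is not in the error, and neither M-CSF array can be left out. Leaving out each other array gave 18 to 22 members.

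**Figure D4:**
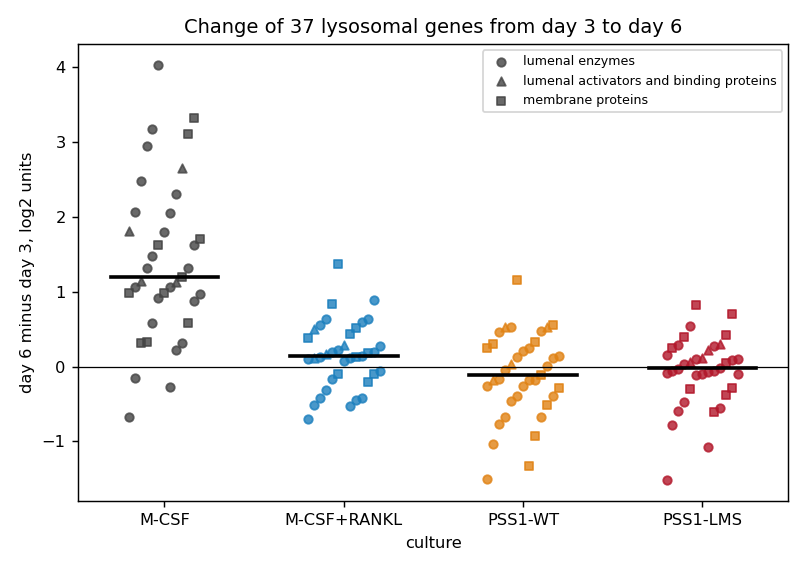
Day 6 minus day 3 in log2 units (vertical axis) for 37 lysosomal genes in each of 4 cultures (horizontal axis). Each point is a gene (circles lumenal enzymes, triangles activators and binding proteins, squares membrane proteins) and bars mark medians, which lie at 1.20 for M-CSF and at 0.14, -0.11 and -0.02 for the cultures with RANKL.

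The 4 largest interactions were those of Sgsh, Pla2g15, Ctns and Slc17a5. Sgsh, the sulfamidase of heparan sulfate breakdown, had signals of 8.28 and 11.46 with M-CSF on days 3 and 6, 9.88 and 9.37 with M-CSF+RANKL, 9.88 and 9.11 in PSS1-WT and 10.11 and 9.03 in PSS1-LMS. Its M-CSF signal was the lowest of the 8 on day 3 and the highest on day 6, and the interaction was -3.96 ± 0.41 (adjusted p = 1.54e-05). Pla2g15, the lysosomal phospholipase A2, had signals of 10.47 and 14.50 with M-CSF on days 3 and 6, 9.41 and 9.96 with M-CSF+RANKL, 9.65 and 9.60 in PSS1-WT and 9.60 and 9.54 in PSS1-LMS (interaction -3.89 ± 0.42, adjusted p = 2.17e-05). Its M-CSF signal on day 3 was already above all arrays with RANKL, and on day 6 it was 4.04 log2 units higher still.

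The other large interactions belonged to exporters of the membrane. Slc17a5 signals were 11.03 and 14.35 with M-CSF on days 3 and 6, 11.66 and 11.56 with M-CSF+RANKL, 11.62 and 11.33 in PSS1-WT and 12.00 and 11.71 in PSS1-LMS (interaction -3.55 ± 0.40, adjusted p = 2.92e-05). Ctns signals were 9.36 and 12.47 with M-CSF on days 3 and 6, 11.44 and 11.95 with M-CSF+RANKL, 11.86 and 10.53 in PSS1-WT and 12.01 and 11.40 in PSS1-LMS (interaction -3.59 ± 0.56, adjusted p = 0.000406). Both exporters were lowest with M-CSF on day 3 and highest with M-CSF on day 6. Both were also lower on day 6 than on day 3 in PSS1-WT (Ctns -1.33, Slc17a5 -0.29) and in PSS1-LMS (-0.61 and -0.30). In M-CSF+RANKL the changes were 0.52 for Ctns and -0.10 for Slc17a5.

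Over all genes the interaction was lower for 12.8%. By role, it was lower for 12 of 23 lumenal enzymes, 2 of 4 activators and binding proteins (Gm2a, -2.57, and Npc2, -1.74) and 5 of 10 membrane proteins. The membrane proteins besides Ctns and Slc17a5 were Cln3 (-1.56), Npc1 (-1.49) and Laptm4a (-1.38). By substrate, it was lower for 6 of 9 genes of sphingolipid breakdown, the enzymes being Arsa, Galc, Gla, Asah1 and Neu1 beside the activator Gm2a. It was lower for 3 of 8 of glycosaminoglycan breakdown (Sgsh, Idua and Naglu), 2 of 5 of glycoprotein sugar breakdown and 3 of 5 of neutral lipid, phospholipid and cholesterol handling. The Arsa interaction (-2.02 ± 0.57) involves 2 arrays within the background and did not pass when signals were floored at the background. That loss was not particular to a dim gene. Flooring left 8 members and 636 of all genes lower, against 19 and 1393 in the main fit. The brighter genes Pla2g15, Ctns, Idua and Naglu also lost their calls. Ppt1 (-1.37, adjusted p = 0.0508) and Smpd1 (-1.14, adjusted p = 0.0530) lay just outside the threshold.

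Several of the genes that differed most with RANKL had no detectable interaction. The values were 0.16 ± 0.40 for Lamp1 (adjusted p = 0.806), 0.12 ± 0.41 for Lamp2 (adjusted p = 0.866), 0.54 ± 0.41 for Scarb2 (adjusted p = 0.384), 0.43 ± 0.41 for Arsb (adjusted p = 0.479) and -0.03 ± 0.42 for Lipa (adjusted p = 0.964). Lamp1 was 0.31 and Lamp2 0.32 log2 units higher with M-CSF on day 6 than on day 3, near the values of 0.24 to 0.70 in the cultures with RANKL. Errors for these genes were about 0.4 log2 units, and interactions well above that size could also be missed. Among the members the smallest interaction to pass was -1.18 (Neu1), and -1.14 (Smpd1) did not pass.

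Beside the day change with M-CSF, other genes moved too. Of 11 macrophage markers, 9 were higher with M-CSF on day 6 than on day 3, with a median of 1.77, and C1qa went from 12.86 to 16.19. Of 9 neutrophil markers, 8 were lower on day 6 with M-CSF (median -2.66), and 9 of 9 were lower on day 6 in each culture with RANKL (medians -2.61 to -3.07). Their part in the lysosomal day change was not tested. Promoters with CACGTG made up 6 of 19 windows (31.6%) of members past the interaction threshold and 2 of 17 (11.8%) of measured members not past it. Glb1, without an array signal, was in neither set. Such promoters made up 1 of 9 windows of members that fell with RANKL and 0 of 4 of members that rose. Over all windows the share was 7.15%. The sets follow calls made in these same data, and a part of the motif in the changes was not tested.

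Over the 3 cultures with RANKL, 1 of 37 members rose from day 3 to day 6, against 1.31% of all genes, and 1 fell, against 2.07% (median -0.01, all genes -0.03). In limma, 8 members had an unadjusted p under 0.05, as did 1844 of all 10871 genes. Scarb2 rose by 1.12 ± 0.21 (adjusted p = 0.00655) and was higher on day 6 in each of the 3 cultures. Idua signals were 9.63 and 12.11 with M-CSF on days 3 and 6, 11.60 and 10.90 with M-CSF+RANKL, 11.66 and 10.16 in PSS1-WT and 11.99 and 11.43 in PSS1-LMS. Idua fell by 0.92 ± 0.23 (adjusted p = 0.0360) in these cultures and was lower on day 6 in each. Sgsh lay just outside the threshold (-0.78 ± 0.21, adjusted p = 0.0505). Without either PSS1-WT array 0 members were lower, and without either M-CSF+RANKL array 3 were. With all 8 arrays in the fit no member passed.

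The third comparison asked what wild-type and mutant PSS1 changed in cultures with RANKL. No member passed in any of its 3 contrasts, and the contrasts against M-CSF+RANKL share those arrays. For PSS1-WT minus M-CSF+RANKL, 0 of 37 were higher, against 0.0092% of all genes, and 0 lower, against 0% (limma, lowest adjusted p = 0.679). An unadjusted p under 0.05 was reached by 1 member and by 746 of all 10871 genes. The difference was negative for 28 members, with a median of -0.14 against -0.06 over all genes. The lowest values were Grn (-0.64 ± 0.25) and Ctns (-0.50 ± 0.34) and the highest Manba (0.28 ± 0.27) and Lamp1 (0.23 ± 0.24).

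For PSS1-LMS minus M-CSF+RANKL, 0 members were higher, against 0.156% of all genes, and 0 lower, against 0.0184% (limma, lowest adjusted p = 0.539). An unadjusted p under 0.05 was reached by 3 members and by 714 of all 10871 genes. The median was 0.01, against -0.02 over all genes. Lamp2 (0.70 ± 0.25) and Lamp1 (0.65 ± 0.24) had the highest values, positive on both days: 0.54 and 0.86 for Lamp2 and 0.66 and 0.64 for Lamp1 on days 3 and 6. Grn (-0.60 ± 0.25) and Arsa (-0.51 ± 0.35) had the lowest, and the Arsa value came from day 6, when its signal was within the background. Beside these values, 8 of 11 macrophage markers had a positive difference in this contrast (median 0.49), and their part was not tested.

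PSS1-LMS minus PSS1-WT gave 0 members higher, against 0% of all genes, and 0 lower, against 0% (limma, lowest adjusted p = 0.598). An unadjusted p under 0.05 was reached by 2 members and by 773 of all 10871 genes. The difference was positive for 27 of 37 members and for 9 of 10 membrane proteins, with medians of 0.13 over all members, 0.39 over the membrane proteins and 0.04 over all genes. Idua (0.80 ± 0.28) and Lamp2 (0.70 ± 0.25) were highest, and Smpd1 (-0.25 ± 0.25) and Manba (-0.24 ± 0.27) lowest. Of 11 macrophage markers, 10 were also higher in PSS1-LMS than in PSS1-WT (median 0.63), and their part was not tested.

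**Figure D5:**
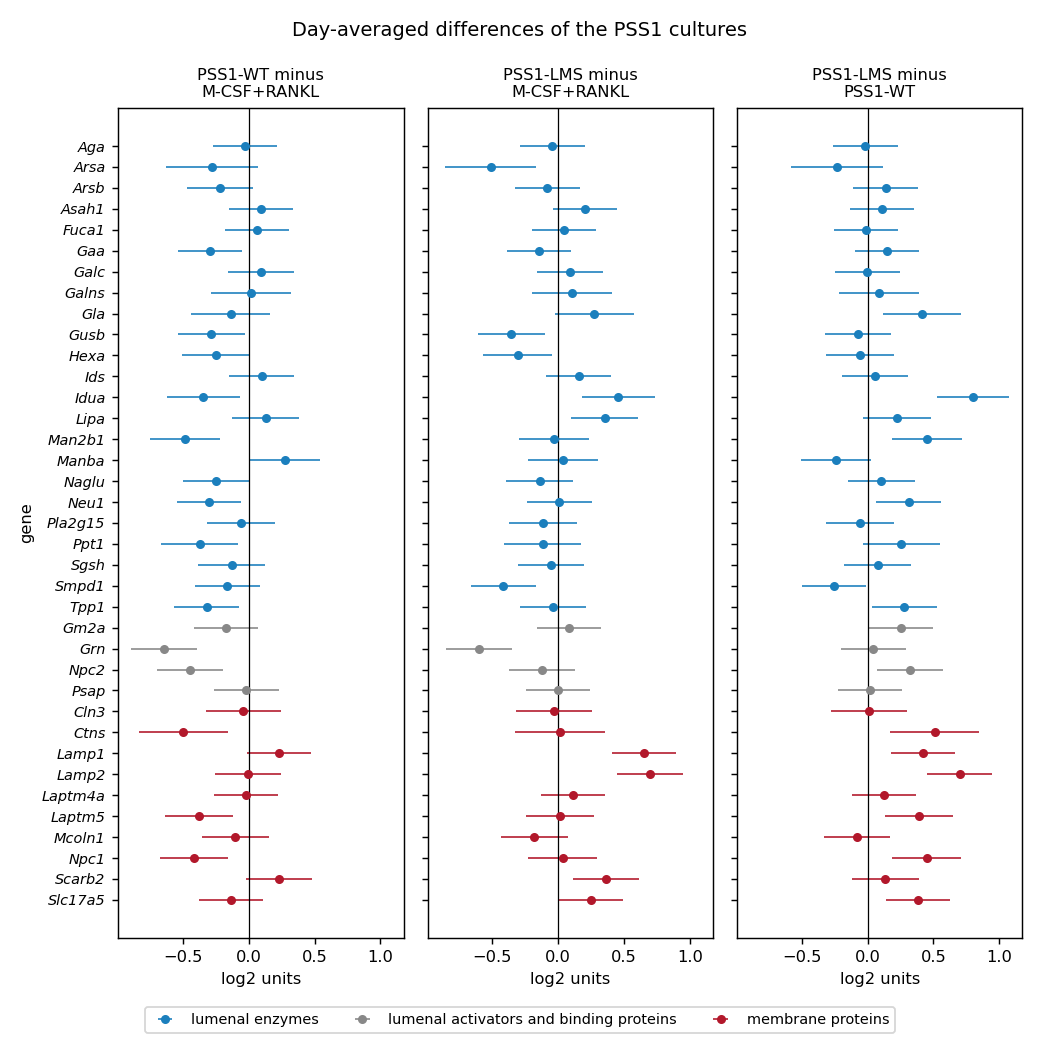
Day-averaged differences in log2 units (horizontal axes) with standard errors for 37 lysosomal genes (rows), in 3 contrasts among the cultures with RANKL. No gene passed the threshold, and all points lie between -0.64 and 0.80.

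Other lysosomal genes were read from lists of the same pathway, against the same shares of all genes (14.1% higher and 12.4% lower with RANKL). Of 11 measured hydrolases outside the members, Plbd1, a phospholipase B-like protein (1.42 ± 0.34), rose with RANKL and Lgmn, an asparagine-specific protease (-4.60 ± 0.53), fell. Of 23 other membrane proteins, 6 rose and 3 fell (median -0.08). Clcn7, the chloride-proton exchanger of the osteoclast membrane, rose by 4.44 ± 0.47 and its subunit Ostm1 by 2.07 ± 0.36, and Mfsd12 rose by 3.83 ± 0.94 and Laptm4b by 2.31 ± 0.41. Slc36a1, a proton-coupled amino acid transporter (-3.68 ± 0.40), Sidt2 (-2.73 ± 0.73) and Abcd4 (-1.43 ± 0.33) fell.

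Of 14 genes of mannose 6-phosphate tagging and enzyme sorting, 4 rose and 2 fell with RANKL (median -0.17). Gnptab, which encodes the catalytic part of the enzyme that starts the tag, rose by 4.78 ± 0.31 (adjusted p = 3.83e-05). The tag's receptors Igf2r (3.42 ± 0.33) and M6pr (1.52 ± 0.28) and the adaptor Gga2 (1.33 ± 0.33) also rose. The alternative sorting receptor Sort1 (-4.93 ± 0.32) and Cln6 (-2.10 ± 0.38) fell. Of 13 measured genes of lysosome transport and exocytosis, the sorting nexin Snx10 rose (5.15 ± 0.38) and the small GTPase genes Rab3d (-1.55 ± 0.35) and Rab27a (-1.11 ± 0.32) fell (median -0.14). Of 14 genes of the mTORC1 machinery on lysosomes, the GTPase gene Rragd rose (2.62 ± 0.28) and Fnip2 (-1.75 ± 0.40) and Rragc (-1.27 ± 0.29) fell (median 0.02).

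The interaction was read in the same lists, against 12.8% of all genes lower and 9.49% higher (median -0.03). It was lower for 8 of the 11 other hydrolases and higher for 0 (median -1.93), with the acid phosphatase gene Acp2 at -3.27 ± 0.42, Siae at -3.18 ± 0.50, Scpep1 at -2.76 ± 0.42 and Prcp at -2.63 ± 0.43. It was lower for 10 of 23 other membrane proteins (median -0.90), with Mfsd12 at -4.00 ± 0.45, the polyamine transporter Atp13a2 at -3.87 ± 0.42, the nucleoside transporter Slc29a3 at -3.86 ± 0.55 and the cation channel Tpcn1 at -3.62 ± 0.45. For tagging and sorting it was lower for 3 of 14 genes, led by Cln8 (-2.21 ± 0.44), and higher for Gnptg (1.49 ± 0.42), with a median of 0.02. It was lower for 4 of 13 transport genes, led by Vps39 (-2.35 ± 0.40), and for 3 of 14 mTORC1 genes, led by Flcn (-3.32 ± 0.42), and higher for Rraga (1.37 ± 0.41).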

How the data were processed

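Per the labels, biotinylated cDNA from 500 ng of total RNA was hybridised to each of 8 arrays. The authors deposited log2 signals for 28846 features. That they are log2 follows from their ceiling of 19.93, which is log2 of 1000000, and summarisation and normalisation are not given in the sources used here. Values were used as deposited. Genes were measured when their highest value reached 4.86, the median of the table (10871 genes). The members and the gene lists were chosen with earlier results of these data known.

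limma 3.58.1 in R 4.3.3 (lmFit, eBayes) was fitted with culture and day as terms to all 8 arrays for RANKL (3 residual degrees of freedom, 4.71 from the prior) and to the 6 arrays with RANKL for PSS1 and day (2 and 13.3). The interaction was fitted to all 8 arrays with a day term of its own for M-CSF. The code was tested on simulated data. Members past the threshold with RANKL are given by array, and in other comparisons up to 4 per direction, or the 2 highest and 2 lowest where none passed. Other lists are given by up to 4 genes per direction. Alternatives were other scalings, filters, floors, variance priors and designs, and leaving out each array. Promoter windows are RefSeq's.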

Additional observations from a re-analysis of the deposited data

Results flagged for a closer look

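The change from day 3 to day 6 differed between the cultures with RANKL and the M-CSF culture for 19 lysosomal genes, by the interaction test itself. The interaction, in log2 units and lower with RANKL in every case, was -3.96 for Sgsh, -3.89 for Pla2g15, -3.59 for Ctns, -3.55 for Slc17a5, -3.40 for Idua and -3.14 for Naglu. It was -2.65 for Gaa, -2.57 for Gm2a, -2.02 for Arsa, -2.01 for Galc, -1.88 for Man2b1, -1.76 for Gla and -1.74 for Npc2. It was -1.65 for Asah1, -1.56 for Cln3, -1.52 for Tpp1, -1.49 for Npc1, -1.38 for Laptm4a and -1.18 for Neu1. The Neu1 call held in 7 of 14 alternative settings. The M-CSF day change behind each of these values comes from the same 2 arrays. The cause was not tested.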

How the results depend on the processing

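Adjusted p-values come from limma with Benjamini-Hochberg adjustment. With RANKL, leaving out each array in turn gave 2 to 16 members higher and 4 to 18 lower, and flooring signals at the background gave 4 lower. Over the same omissions the RANKL difference of Idua ran from -1.31 to 2.09 and that of Sgsh from -2.23 to 1.73, so that both changed sign without an M-CSF array. The other settings left the RANKL count at 3 to 5 higher and, floors aside, 9 or 10 lower. Calls over all genes there ran from 668 to 1598 higher and, floors aside, from 968 to 1342 lower.

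For the day effect with RANKL, the count of members lower was 2 after centring arrays on their medians, 0 after quantile normalisation, 0 without the filter on low values, 2 with a stricter filter and 3 with an intensity trend in the prior. Omissions gave 0 to 3. With all 8 arrays in the fit, or with either floor, 0 members were higher and 0 lower. Centring also moved the split of all genes from 142 higher and 225 lower to 125 and 356.

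The interaction was lower for 8 members with floored signals and for 14 when genes at the floor on every array were left out, a setting chosen after the data were seen. Calls lower over all genes were 636 and 798 there, against 1393 in the main fit. Other settings that kept all arrays gave 17 to 25 members and 1082 to 1507 of all genes. Under every alternative tried, 0 members passed in the PSS1 contrasts. No paired analysis was possible because each group holds 1 array. Signals of Laptm5 (19.62) and Grn (19.36) with M-CSF on day 6 lay near the ceiling of the scale, and signals of Galc, Ppt1, Scarb2 and Arsa with RANKL lay close to the background.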
